A study of Mus musculus with 20 samples.

Results

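The genes of the subunits of oxidative phosphorylation were examined in granulosa cells (GCs), the somatic cells that surround the oocyte in the ovarian follicle. Members were the protein-coding genes of the GENCODE M21 annotation whose symbols name a subunit of complex I (mt-Nd and Nduf genes), complex II (Sdh), complex III (mt-Cytb, Uqcr and Cyc1), complex IV (mt-Co and Cox4 to Cox8) or the ATP synthase, here complex V (mt-Atp and Atp5). The choice used names alone and no measured value. It gave 99 of 55487 annotated genes, of which 13 lie on the mitochondrial genome and 86 in the nucleus. Ndufa4 and its relative Ndufa4l2 were counted with complex IV, to which the Ndufa4 protein belongs in spite of its name. The question was how the mitochondrial and the nuclear sets stand to each other in the 4 groups, and whether single members differ between mouse lines or cycle stages.

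GCs were taken from young adult females of 2 Dummerstorf mouse lines, at estrus or at diestrus. The ctrl line was unselected, and the FL1 line was bred from the same founder population for large litters. Each group (ctrl estrus, FL1 estrus, ctrl diestrus, FL1 diestrus) held 5 samples, each from the largest follicles of 1 mouse, with the oocyte and its cumulus cells left out. No mouse was treated, stages were read from vaginal smears, and each line was represented by 1 population. Each library had between 5446576 and 8257041 reads assigned to genes. Levels are given as CPM, counts scaled to the size of each library, and the reads come from the 3′ ends of transcripts, so they were not divided by gene length. All 10 GC markers examined were detected, with a summed level of 6462 to 17410 CPM, although Amh was at 0 in 6 samples. The summed markers of other cells ranged from 47.6 to 1620 CPM for erythrocytes, 135 to 1708 CPM for stroma, 75.4 to 684 CPM for oocytes, 67.1 to 1203 CPM for smooth muscle, 81.8 to 351 CPM for theca cells, 16.1 to 103.1 CPM for endothelium and 7.67 to 117 CPM for macrophages. In bulk samples of this kind, fewer cells of a type and less RNA per cell cannot be told apart.

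Oxidative phosphorylation makes ATP at the inner mitochondrial membrane. Complexes I and II pass electrons from NADH and succinate to ubiquinone, complex III passes them on to cytochrome c, and complex IV passes them to oxygen. Complexes I, III and IV pump protons, whose return through the ATP synthase drives the synthesis of ATP. Most subunits are made in the cytosol from nuclear genes, whereas a small core is made within the organelle from its own genome. Complex II has nuclear subunits only. Mitochondria of GCs also carry out the first step of steroid synthesis from cholesterol.

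Parts of the mitochondrial genome have copies in the nuclear genome. This bears on the counts of the 13 mitochondrial genes, since reads that fit several places were left out (23.2 to 32.8% of all reads of a library). A stretch of chromosome 1 (GRCm38, chr1:24611535-24616197, minus strand) holds annotated pseudogenes that match 7 mitochondrial genes between the end of mt-Co1 and the start of mt-Nd4, in the same order, with no annotated copy of mt-Atp8. The 345 bases of its copy Gm28438 that align to mt-Nd3 differ at 1 base, T3C, counted from the first base of mt-Nd3. The copy Gm28661 has no mismatch to mt-Co2 over 681 bases. By contrast, the closest annotated copy of mt-Cytb, Gm11410 on chromosome 4, differs at 82 of 1143 bases. The following windows of 60 bases show these 3 kinds of pairs, with the bases that differ in capitals. They lie at chrM:9459-9518 and chr1:24613060-24613119 (the first 60 bases of mt-Nd3, minus strand on chromosome 1), at chrM:7634-7693 and chr1:24614885-24614944 (minus strand), and at chrM:15228-15287 and chr4:80005072-80005131 (plus strand).
mt-Nd3: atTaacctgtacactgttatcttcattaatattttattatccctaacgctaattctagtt
Gm28438: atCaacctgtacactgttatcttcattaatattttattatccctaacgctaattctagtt
mt-Co2: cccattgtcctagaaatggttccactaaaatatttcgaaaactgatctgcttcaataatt
Gm28661: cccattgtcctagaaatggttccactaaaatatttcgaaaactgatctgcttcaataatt
mt-Cytb: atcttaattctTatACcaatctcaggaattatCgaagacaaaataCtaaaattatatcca
Gm11410: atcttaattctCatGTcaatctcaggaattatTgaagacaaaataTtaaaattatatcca

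The counted mitochondrial reads came almost wholly from genes without a near-identical copy of their last 500 bases. The copy of mt-Nd4, Gm28439, matches its first 876 bases without a mismatch but not its end. Over the 20 samples, mt-Nd1 (1709002 reads), mt-Nd2 (1697579 reads), mt-Cytb (1615014 reads) and mt-Nd4 (1592240 reads) each made up between 22.6 and 24.3% of the reads on the 13 genes. mt-Nd5 followed with 244670 reads (3.47%) and mt-Co1 with 178685 reads (2.54%). The antisense gene mt-Nd6 had 5092 reads, and the strand setting of the counting was not stated, so its reads and those of the opposite strand cannot be told apart. Of the 6 genes whose closest annotated copy was at least 99% identical over the last 500 bases, 5 were barely counted. These were mt-Nd3 (1044 reads), mt-Co3 (66 reads, 54 of them in 1 sample), mt-Co2 (8 reads), mt-Atp6 (7 reads, all in 1 sample) and mt-Nd4l (0 reads). mt-Co1 was the exception among the 6, with 99.8% identity to its closest copy over the 483 bases that the search aligned. Over all 492 bases of that copy, Gm29216, there were 6 mismatches. mt-Atp8 had 0 reads and no annotated copy in this search, although the chromosome 1 stretch between the copies of mt-Co2 and mt-Atp6, where mt-Atp8 would fall, holds no annotated gene. A count of 0 allows up to 3 reads per library, and for these genes it speaks of reads with a single place in the genome, not of the RNA. mt-Atp8 also shares its last 43 bases with the start of mt-Atp6 (chrM:7927-7969, plus strand), shown in capitals at the end of mt-Atp8 (chrM:7880-7969), and a read in the shared bases fits both genes.
mt-Atp8: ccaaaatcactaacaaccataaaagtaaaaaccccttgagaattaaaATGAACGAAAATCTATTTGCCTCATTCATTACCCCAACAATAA

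**Figure D1:**
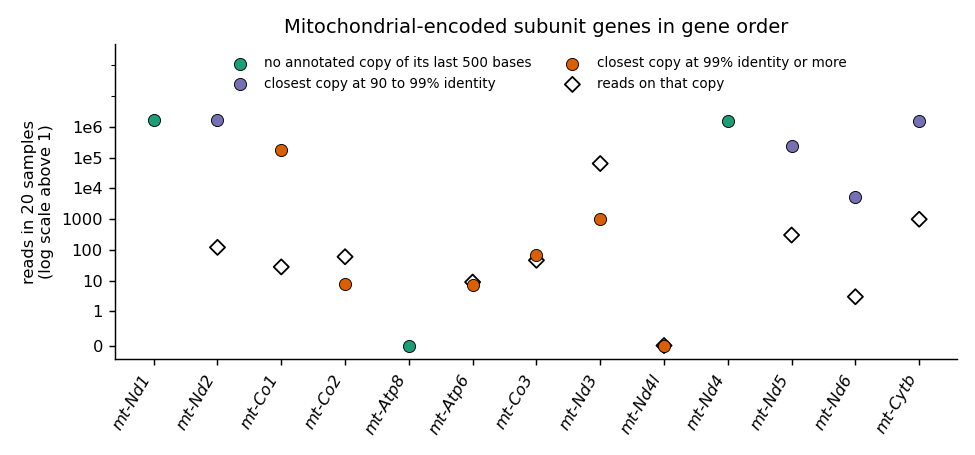
Reads counted in all 20 samples on the 13 mitochondrial-encoded subunit genes, in their order on the mitochondrial genome (circles, coloured by the identity of the closest annotated nuclear copy), and on that copy (diamonds); the vertical axis is logarithmic above 1 and linear below. The green and purple genes other than mt-Atp8 sit between 5092 and 1709002 reads, the orange genes other than mt-Co1 at or below 1044, and mt-Nd3 is the orange gene whose copy, with 64605 reads, lies far above it.

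For mt-Nd3, a core subunit of complex I, far more reads were counted on the copy than on the gene, and where they came from was not tested. Gm28438 had 64605 reads, and its share of the reads on the 2 genes was between 97.2 and 100% in every sample. The pooled level of mt-Nd3 and Gm28438 was 428 ± 188 CPM (SD, n = 5) in ctrl estrus, 441 ± 316 CPM in FL1 estrus, 535 ± 236 CPM in ctrl diestrus and 613 ± 273 CPM in FL1 diestrus. The 4 groups overlapped. FL1 estrus mouse 4 stood apart, with 0 reads on mt-Nd3 and 374 on Gm28438, against 1638 or more on the copy in each other sample. The same library had the highest ratio to mt-Cytb for mt-Nd5 (0.360, next highest 0.229), mt-Nd2 (1.70, next 1.40) and mt-Co1 (0.195, next 0.168), and it held the 54 reads of mt-Co3. For mt-Co2, the annotated copies held 6505 reads against 8 on the gene. Only 60 of these lay on Gm28661, the copy shown above. The other 6445 lay on Gm13341 on chromosome 2, which is 94.8% identical over 500 bases with 14 mismatches. Their origin was not tested.

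As a whole, the 13 mitochondrial genes stood above the 86 nuclear genes in all samples but 1, with a wide spread. Their summed level was 48595 ± 18305 CPM (SD, n = 5) in ctrl estrus, 51281 ± 17601 CPM in FL1 estrus, 55537 ± 16584 CPM in ctrl diestrus and 58127 ± 12868 CPM in FL1 diestrus. In the 5 ctrl estrus mice the sums were 67142, 60551, 20214, 52309 and 42760 CPM. In the 5 FL1 estrus mice they were 48443, 46986, 50627, 30865 and 79484 CPM. Each of these groups thus held a low sample, mouse 3 of ctrl and mouse 4 of FL1. The ctrl diestrus sums were 35443, 57173, 65785, 76300 and 42985 CPM. The FL1 diestrus sums were 47341, 76480, 46154, 55034 and 65624 CPM. All 4 groups overlapped, and each difference between group means was smaller than the larger SD of the groups compared.

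The nuclear genes summed to 26498 ± 3926 CPM in ctrl estrus, 25203 ± 2598 CPM in FL1 estrus, 24338 ± 3305 CPM in ctrl diestrus and 23912 ± 5934 CPM in FL1 diestrus (SD, n = 5). Here too each difference between means was smaller than the larger SD, and the 20 samples lay between 18815 and 33628 CPM. The mitochondrial share of the reads on genes ran from 2.14 to 7.76%, a 3.63-fold range, and the nuclear share from 1.96 to 3.37%, a 1.72-fold range. The reads of the 2 mitochondrial rRNA genes, which are no members, ranged from 4.50 to 14.2%. On the log2 scale, the ratio of mitochondrial to nuclear reads in the same sample was 0.77 ± 0.75 in ctrl estrus, 0.97 ± 0.57 in FL1 estrus, 1.15 ± 0.30 in ctrl diestrus and 1.29 ± 0.51 in FL1 diestrus. It was below 0 in 1 sample, ctrl estrus mouse 3 (-0.34). The difference in this ratio between the lines at estrus was 0.19 on the log2 scale, -0.09 without that mouse and 0.40 without FL1 estrus mouse 4. Between the stages the ratio differed by 0.37 in ctrl and 0.32 in FL1, and by 0.09 and 0.11 without the same mice.

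**Figure D2:**
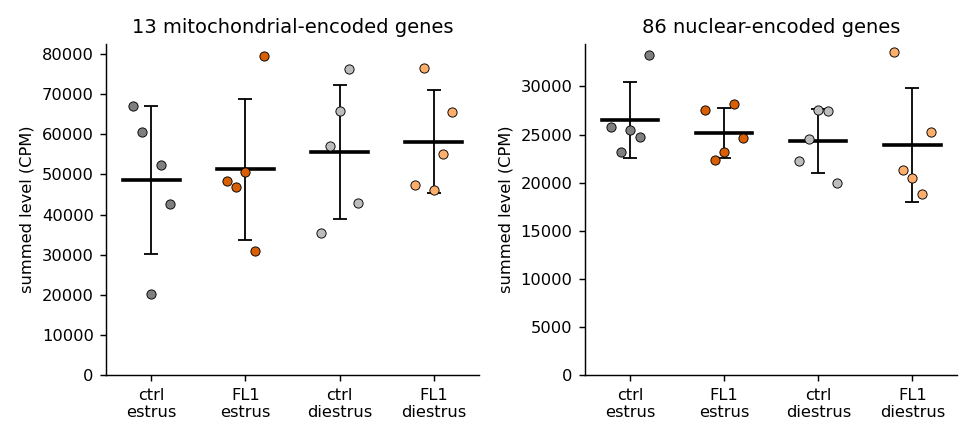
Summed level in CPM of the 13 mitochondrial-encoded genes (left) and the 86 nuclear-encoded genes (right) in the 4 groups; points are samples (n = 5 a group), lines the mean, and bars the SD. All groups overlap in both panels, and the mitochondrial sums spread from 20214 to 79484 CPM, the nuclear sums from 18815 to 33628 CPM.

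The spread between samples of a group differed between the sets. Among members with a mean of at least 100 CPM, the SD of log2 levels within groups had a median of 0.52 over 6 mitochondrial genes (0.40 to 0.56) and of 0.33 over 64 nuclear genes (0.13 to 0.53). The median over all 1930 genes at this level was 0.34. The sets were not matched for abundance, since mt-Nd1, mt-Nd2, mt-Nd4 and mt-Cytb averaged 12076 to 12948 CPM, mt-Nd5 1860 CPM and mt-Co1 1364 CPM, and the highest nuclear member 3102 CPM. The 6 mitochondrial genes share their library and their transcripts start as 1 precursor, so their spreads are not independent. The steadiest nuclear member was Cox6c, a small subunit of complex IV, with an SD of 0.13 and levels between 646 and 886 CPM in all samples.

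Every complex was represented among the nuclear genes. Of the 35 nuclear genes of complex I, all had reads, and the highest means were 495 CPM for Ndufa6 and 489 CPM for Ndufb5, which are accessory subunits. In complex II, Sdhc, a membrane anchor, had 233 CPM and Sdha, the flavoprotein that oxidizes succinate, had 229 CPM. In complex III, the small subunits Uqcrq and Uqcrh had 636 and 521 CPM. In complex IV, Cox6a1 and Cox6c had 964 and 746 CPM. The highest nuclear members belonged to the ATP synthase, namely Atp5g3 with 3102 CPM, which codes for the c subunit of the membrane ring, and Atp5b with 1181 CPM, which codes for the catalytic beta subunit. Atp5g3 alone made up 12.4% of the reads on nuclear members.

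Where a subunit has tissue isoforms, GCs used the general form. Cox4i1 had 98.4% of the reads on Cox4i1 and Cox4i2, and Cox6a1 had 99.9% against Cox6a2, the heart and muscle form (72 reads). Cox8a had 99.99% of its family, with 4 reads on the muscle form Cox8b and 0 on the testis form Cox8c. Cox7b had 99.9% against the testis form Cox7b2, and Cox6b1 had 96.3% against the testis form Cox6b2. Striated muscle markers summed to 0 to 4.81 CPM, with Tnnt3 at 0. In the family with a member of supercomplexes, Cox7a2 had 83.3%, the muscle form Cox7a1 1.77% and Cox7a2l, the supercomplex factor, 14.9%. By group, the share of Cox7a2l was 13.04% in FL1 estrus and 17.5% in FL1 diestrus, and 12.998% and 16.5% in ctrl estrus and diestrus. Its level differed by 0.31 log2 units between the stages over both lines (95% CI -0.08 to 0.69, edgeR adjusted p = 0.505). The hypoxia-linked form Ndufa4l2 had 1.18% against 98.8% for Ndufa4, with 222 reads in all and none in 8 samples. These rare forms had wide intervals. In estrus, Ndufa4l2 differed between the lines by 2.57 (95% CI -0.57 to 5.72) and Cox4i2 by 1.66 (95% CI -0.39 to 3.71). The level of Cox4i2 at this stage was 2.64 ± 2.17 CPM in ctrl and 8.40 ± 6.08 CPM in FL1 (SD, n = 5). The lines overlapped for both genes.

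Of the 99 members, 88 had enough reads to be tested in each of 7 fits across all genes (8 mitochondrial and 80 nuclear), and Ndufa4l2 was tested in 5. The 10 never tested were mt-Nd4l, mt-Co2, mt-Co3, mt-Atp6, mt-Atp8, Cox6a2, Cox7b2, Cox8b, Cox8c and a second gene ID of Atp5o. No member passed an adjusted p of 0.05 in edgeR's quasi-likelihood test with Benjamini-Hochberg adjustment in any fit. With limma-voom there were 2, in the comparison of stages over both lines (Ndufs4 and Uqcr10), among 787 genes called in all, and 0 in each other fit. Differences below are given on the log2 scale with the 95% confidence interval (CI), and describe members that did not pass.

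In estrus, FL1 against ctrl, 0 of 89 members were called by edgeR, while 0.769% of all 13007 genes tested were. DESeq2 called 1 member, Uqcrb, among 425 genes called in all. At an unadjusted p under 0.05 there were 8 members, 4 higher and 4 lower in FL1, against 10.7% of all genes. The groups did not overlap for 3 members, against 3.55% of all genes. Uqcrb and Ndufs6 lay above in FL1, and Ndufa13, named here after its values were seen, below. The median difference was -0.04 over members and 0.01 over all genes, and 34 members were higher and 55 lower. The 8 mitochondrial genes tested had a median of 0.08, with 7 of 8 higher in FL1, but the median turned to -0.12 without ctrl estrus mouse 3 and to -0.01 without FL1 estrus mouse 5, and was 0.20 without FL1 estrus mouse 4. Of the 81 nuclear genes, 24 to 48 were higher in FL1 with each sample left out in turn, and their median turned from below 0 to 0.05 without ctrl estrus mouse 5. For 75 of the 89 members (84.3%) the interval excluded a 2-fold difference in either direction, which was so for 39.6% of all genes. The members were not matched to all genes for abundance. In the fits over all samples, 64 of 81 nuclear members averaged at least 100 CPM, against 1930 of 14938 genes.

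Uqcrb (ENSMUSG00000021520, chr13:66900617-66905378, minus strand) codes for a small subunit of complex III next to cytochrome b. Its levels in ctrl estrus were 104.8, 104.6, 114.9, 84.5 and 115.8 CPM, and in FL1 estrus 148, 213, 190, 212 and 143 CPM. Every FL1 sample lay above every ctrl sample, with means of 104.9 ± 12.6 and 181 ± 33.9 CPM (SD, n = 5). The difference was 0.79 (95% CI 0.39 to 1.18, edgeR adjusted p = 0.0597), and over 9 alternative settings it stayed between 0.73 and 0.80, with adjusted p between 0.00167 and 0.162. In diestrus the levels overlapped, at 80.1, 93.1, 92.9, 125 and 98.3 CPM in ctrl and 155, 91.2, 99.5, 103.6 and 124 CPM in FL1. There the difference was 0.24 (95% CI -0.19 to 0.66). The change of the line difference between the stages, tested as an interaction, was -0.56 (95% CI -1.11 to -0.01, edgeR adjusted p = 0.9998). The annotated copies of Uqcrb held 0.870% of the pooled reads.

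Of the other members at an unadjusted p under 0.05 in estrus, Ndufs6, a subunit of the electron input module of complex I, had 147, 125, 105.9, 99.1 and 172 CPM in ctrl and 190, 174, 176, 189 and 177 CPM in FL1. The highest ctrl sample lay just below the lowest FL1 sample, and the difference was 0.48 (95% CI 0.08 to 0.88, edgeR adjusted p = 0.320). Ndufa13, an accessory subunit of complex I, did not reach that p, with a difference of -0.32 (edgeR adjusted p = 0.516). It averaged 242 ± 25.3 CPM in ctrl and 194 ± 16.3 CPM in FL1 (SD, n = 5). FL1 estrus mouse 4 was low in some members, although its summed level of nuclear members (28209 CPM) and its Cox5a, Uqcr10, Cyc1 and Ndufs4 were the highest of its group. Its levels were 14.0 CPM for Ndufs3, a core subunit of complex I, and 10.5 CPM for Cox7c of complex IV, the lowest of all samples in both cases. Ndufs3 differed by -0.78 (95% CI -1.42 to -0.14, edgeR adjusted p = 0.321) and by -0.56 without this mouse. Cox7c differed by -0.88 (edgeR adjusted p = 0.412) and by -0.61 without it. Ndufb8, another accessory subunit of complex I, had 331, 287, 361, 327 and 548 CPM in ctrl and 257, 207, 260, 289 and 328 CPM in FL1. The lines overlapped, and the difference was -0.47 (95% CI -0.89 to -0.04, edgeR adjusted p = 0.392), or -0.27 without ctrl estrus mouse 5.

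In diestrus, FL1 against ctrl, 0 of 88 members were called by edgeR and 0 by DESeq2. Over all genes, edgeR called 0.248% of 12886 and DESeq2 called 118 genes. Of the 88, 5 had an unadjusted p under 0.05, 3 higher and 2 lower, against 5.56% of all genes. The groups did not overlap for 1 member, Ndufs8, against 1.59% of all genes. The medians were 0.01 over members and 0.01 over all genes. The 8 mitochondrial genes had a median of 0.02, with 7 of 8 higher in FL1, and between -0.10 and 0.25 with each sample left out in turn. The median of the nuclear genes was then between -0.19 (without FL1 diestrus mouse 1) and 0.07. For 75 of the 88 members the interval excluded a 2-fold difference, which was so for 44.0% of all genes, again not matched for abundance.

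Ndufs8 (ENSMUSG00000059734, chr19:3908863-3912774, minus strand) codes for an iron-sulfur subunit of complex I. In diestrus it had 23.0, 72.0, 57.8, 34.3 and 46.4 CPM in ctrl and 110, 74.1, 84.7, 86.1 and 86.3 CPM in FL1. The lowest FL1 sample lay just above the highest ctrl sample, and the difference was 0.93 (95% CI 0.35 to 1.50, edgeR adjusted p = 0.386). In estrus the lines overlapped widely, at 72.2 ± 25.0 CPM in ctrl and 82.2 ± 36.6 CPM in FL1 (SD, n = 5).

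Cox5a (ENSMUSG00000000088, chr9:57521274-57532426, plus strand), a subunit of complex IV, was among the members with the lowest p in both stages. In estrus it had 420, 434, 445, 421 and 525 CPM in ctrl and 521, 500, 514, 796 and 651 CPM in FL1. In diestrus it had 252, 378, 386, 401 and 299 CPM in ctrl and 716, 424, 390, 505 and 467 CPM in FL1. Apart from ctrl estrus mouse 5 at the first stage and FL1 diestrus mouse 3 at the second, the lines were separate. The difference was 0.41 in estrus (95% CI 0.03 to 0.78, edgeR adjusted p = 0.406; 0.29 without FL1 estrus mouse 4) and 0.55 in diestrus (95% CI 0.11 to 0.99, edgeR adjusted p = 0.728).

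Cox5b, another subunit of complex IV, lay on the other side. In diestrus it had 129, 86.3, 66.3, 87.4 and 68.2 CPM in ctrl and 74.7, 51.5, 44.1, 27.6 and 81.2 CPM in FL1. The lines overlapped, and the difference was -0.64 (95% CI -1.25 to -0.04, edgeR adjusted p = 0.863). Cox8a of complex IV differed by -0.39 in diestrus (95% CI -0.82 to 0.04).

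**Figure D3:**
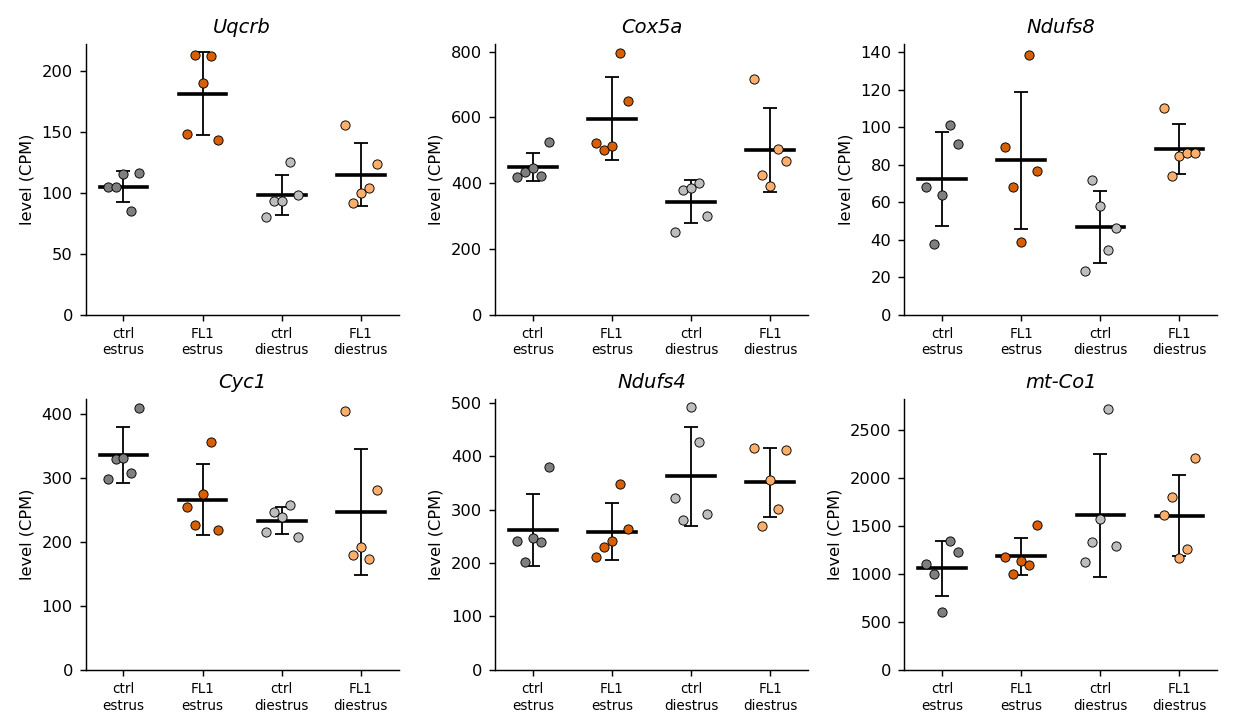
Level in CPM of Uqcrb, Cox5a, Ndufs8, Cyc1, Ndufs4 and mt-Co1 in the 4 groups; points are samples (n = 5 a group), lines the mean, and bars the SD. Groups do not overlap for Uqcrb between the lines in estrus, for Ndufs8 between the lines in diestrus and for Cyc1 and Cox5a between the stages in ctrl.

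With both stages in 1 fit, the line difference adjusted for stage was called for 0 of 89 members by edgeR, which called 1.21% of 14938 genes. DESeq2 called 3 members (Uqcrb, Cox5a and Atp5g1), among 438 genes called in all. At an unadjusted p under 0.05 there were 11 members, 7 higher and 4 lower in FL1, against 11.0% of all genes. Uqcrb differed by 0.51 (95% CI 0.22 to 0.80, edgeR adjusted p = 0.0804) and Cox5a by 0.48 (95% CI 0.20 to 0.75, edgeR adjusted p = 0.0813). Sdhc differed by 0.44 and Ndufa4 by 0.46, with edgeR adjusted p of 0.200 and 0.196. The 4 lower were Atp5g1, described below, Cox5b, Cox7c and Ndufs3. Cox5b differed by -0.59, Cox7c by -0.68 and Ndufs3 by -0.52, with edgeR adjusted p of 0.208, 0.268 and 0.332, and by -0.50, -0.55 and -0.41 without FL1 estrus mouse 4. The line difference had the same sign at both stages, which share no samples, for 57 of 88 members (64.8%) and for 7112 of 12270 genes (58.0%). Among those with an unadjusted p under 0.05 at either stage, the signs were the same for 11 of 11 members and for 1352 of 1816 genes (74.4%). Macrophage markers differed between the lines as well. Lyz2 was higher in FL1 by 2.09 over both stages (edgeR adjusted p = 0.00226), the only one of the 8 markers that edgeR called (DESeq2 also called Cd68), and none of the 8 was at 0 throughout. Their summed level was 21.1 to 63.0 CPM in ctrl estrus, 47.2 to 117 CPM in FL1 estrus, 7.67 to 20.6 CPM in ctrl diestrus and 12.3 to 88.1 CPM in FL1 diestrus. The median summed levels of endothelial, erythrocyte and oocyte markers were also higher in FL1 at both stages, and that of theca markers was lower. Their ranges overlapped between the lines. For stroma and smooth muscle the direction differed between the stages. The part of these cell types in the line differences of members was not tested.

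Over both stages, Atp5g1, a gene for the c subunit of the ATP synthase like Atp5g3, had the largest fitted line difference of the 89 members tested. Its closest annotated copy is Gm10039, a processed pseudogene on the same chromosome. Reads were counted on both genes, and where those on Gm10039 came from was not tested. The coding sequence of Atp5g1 aligns to it over 411 bases with 1 mismatch, G385A, counted from the first base of the start codon of Atp5g1. The last 60 coding bases are shown, at chr11:96073104-96073163 and chr11:100361716-100361775 (both minus strand), with the base that differs in capitals.
Atp5g1: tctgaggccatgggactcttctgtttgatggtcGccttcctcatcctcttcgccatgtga
Gm10039: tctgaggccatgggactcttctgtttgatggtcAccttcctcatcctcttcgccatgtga

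In ctrl estrus, Atp5g1 had 415, 66, 41, 32 and 62 reads, which were 100, 38.4, 25.5, 19.3 and 32.5% of the reads on the gene and Gm10039. In FL1 estrus it had 43, 28, 27, 0 and 41 reads, or 15.2, 9.86, 21.8, 0 and 19.4%. The first ctrl mouse thus had all of its reads on the gene, and no FL1 mouse had more on the gene than on the copy. In ctrl diestrus, Atp5g1 had 185, 65, 248, 92 and 9 reads, or 76.4, 30.4, 97.6, 97.9 and 52.9%. In FL1 diestrus it had 69, 16, 24, 11 and 28 reads, or 24.6, 12.8, 32.4, 20.4 and 23.5%. The shares of the lines did not overlap in diestrus apart from ctrl mouse 2, and in estrus ctrl mouse 4 lay within the FL1 range. The level of both together was 2.27 to 60.5 CPM in ctrl and 9.20 to 44.4 CPM in FL1, with overlap at both stages.

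Counted alone, Atp5g1 differed between the lines by -2.09 in estrus (edgeR adjusted p = 0.372; -0.82 without ctrl estrus mouse 1), by -1.98 in diestrus (edgeR adjusted p = 0.703) and by -2.03 over both stages (edgeR adjusted p = 0.103). Pooled with its 4 annotated copies, an alternative chosen after seeing the data, it differed by 0.03, -0.28 and -0.13. Gm10039 itself differed in the other direction, by 1.10 over both stages (edgeR adjusted p = 0.496). Atp5g3, which has the same mature protein, differed by -0.15 in estrus (95% CI -0.60 to 0.29) and by -0.13 in diestrus (95% CI -0.59 to 0.34). Of all 99 members, 41 had such copies (10 mitochondrial and 31 nuclear), and in 4 nuclear members the copies held over 10% of the pooled reads. Besides Atp5g1 these were Ndufa12 (47.2%), Atp5g2 (49.2%) and Atp5l (12.8%). For Ndufa12, an accessory subunit of complex I, pooling moved the line difference in estrus from -0.45 to -0.24.

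**Figure D4:**
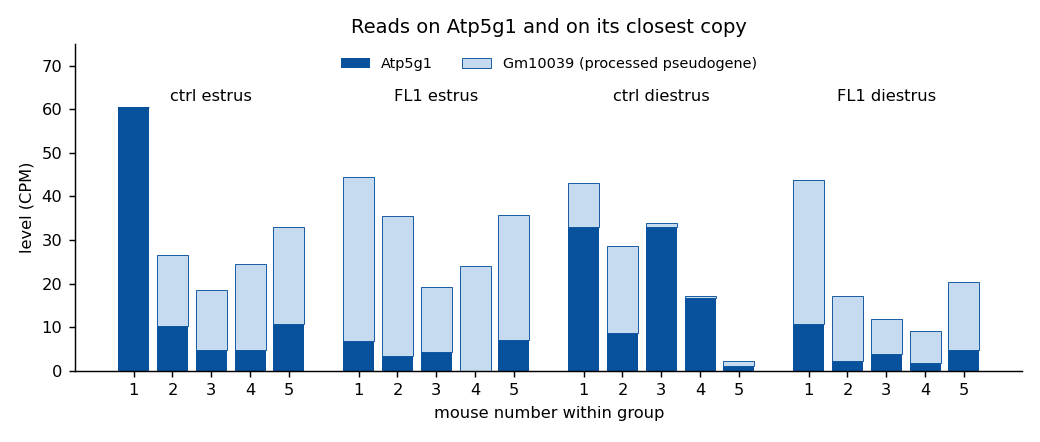
Level in CPM of Atp5g1 (dark) and of its closest copy Gm10039 (light), stacked, in each of the 20 samples; mouse numbers are within groups and pair no samples. The dark part is 0 to 32.4% of the bar in FL1 samples and 19.3 to 100% in ctrl samples, while the bars of the lines overlap in height.

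Between the stages, diestrus against estrus, 0 of 88 members were called in ctrl by edgeR, which called 1.36% of 12850 genes. DESeq2 called 1 member there (Cyc1), among 526 genes called in all. In FL1, 0 of 89 were called by edgeR, which called 0.221% of 13114 genes, and 0 by DESeq2, which called 265 genes. At an unadjusted p under 0.05 there were 6 members in ctrl (2 higher and 4 lower in diestrus) against 11.8% of all genes, and 2 in FL1 (1 higher and 1 lower) against 9.48%. Groups did not overlap for 3 members in ctrl, against 3.66% of all genes, and for 0 in FL1, against 2.42%. The 3 were Cyc1, Cox5a and Cox6a1, all lower in diestrus. The median over members was -0.11 in ctrl and -0.06 in FL1, and 0.00 and 0.01 over all genes. With each sample left out in turn, the median over nuclear members was -0.20 to -0.04 in ctrl and -0.26 to 0.02 in FL1, the latter above 0 without FL1 diestrus mouse 4.

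With both lines in 1 fit, the stage difference was called for 0 of 89 members by edgeR, which called 3.17% of 14938 genes. DESeq2 called 3 members (Ndufs4, mt-Co1 and Uqcr10), among 873 genes called in all. Of the 89, 10 had an unadjusted p under 0.05, 2 higher and 8 lower in diestrus, against 14.6% of all genes. The sets lay on opposite sides of 0. The 8 mitochondrial genes had a median of 0.29, with 7 of 8 higher in diestrus, and the 81 nuclear genes a median of -0.09, with 60 of 81 lower. Over all genes the median was 0.02, and 7203 of 14938 were lower. Complex III stood at -0.17, with 9 of 9 nuclear genes lower and 4 at an unadjusted p under 0.05, and complex I at -0.09, with 28 of 35 lower. Complexes II, IV and V each stood at -0.08, with 3 of 4, 10 of 16 and 10 of 17 lower. Over 8 alternative settings the mitochondrial median stayed between 0.27 and 0.31 and that of complex III between -0.22 and -0.17. With each sample left out in turn, the mitochondrial median was 0.15 (without ctrl diestrus mouse 4 or ctrl estrus mouse 3) to 0.34. That of complex III was -0.28 (without FL1 diestrus mouse 1) to -0.11 (without ctrl diestrus mouse 1), with 8 or 9 genes lower. Genes of a set share their samples, so these medians have no error of their own, and the summed levels above differed by less than the spread between mice.

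**Figure D5:**
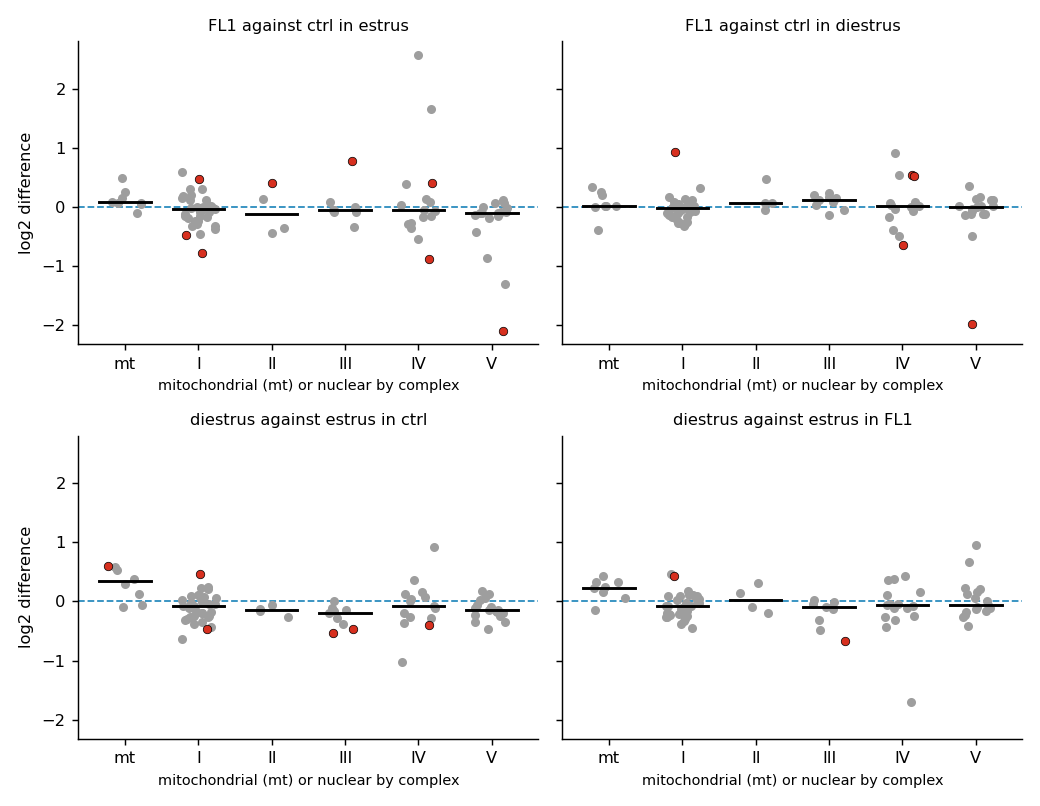
Log2 difference of each tested member in the 4 comparisons of 2 groups, by set (8 mitochondrial-encoded genes, and the nuclear genes of complexes I to V). Red points have an unadjusted p under 0.05, black lines are medians, and the dashed line marks the median over all genes tested. No point passed an adjusted p of 0.05 in edgeR. In both stage panels the mitochondrial median is above 0 (0.34 in ctrl and 0.23 in FL1) and that of complex III below. With 1 sample left out, the mitochondrial medians range from 0.12 to 0.42 in ctrl and from 0.10 to 0.44 in FL1.

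The 2 members higher in diestrus were of different genomes. mt-Co1, the catalytic core of complex IV, had 1104, 1003, 606, 1345 and 1230 CPM in ctrl estrus and 1127, 1334, 1572, 2715 and 1293 CPM in ctrl diestrus. It had 1175, 1001, 1138, 1089 and 1512 CPM in FL1 estrus and 1610, 1797, 1166, 1258 and 2206 CPM in FL1 diestrus. The stages overlapped in both lines, and ctrl diestrus mouse 4 stood above all other samples. The difference was 0.60 in ctrl (95% CI 0.06 to 1.13, edgeR adjusted p = 0.348; 0.33 without that mouse), 0.43 in FL1 (95% CI -0.01 to 0.87, edgeR adjusted p = 0.554; 0.29 without FL1 diestrus mouse 5, the lowest with 1 sample left out) and 0.52 over both lines (95% CI 0.18 to 0.87, edgeR adjusted p = 0.0860).

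Ndufs4 (ENSMUSG00000021764, chr13:114287795-114388258, minus strand) codes for a subunit needed to complete complex I. In ctrl it had 241, 201, 247, 240 and 379 CPM in estrus and 321, 280, 492, 426 and 292 CPM in diestrus. In FL1 it had 212, 229, 242, 348 and 263 CPM in estrus and 415, 270, 356, 302 and 411 CPM in diestrus. Without ctrl estrus mouse 5 the ctrl stages would not overlap, and in FL1 mouse 4 of estrus lay within the diestrus range. The difference was 0.46 in ctrl, 0.43 in FL1 and 0.45 over both lines (95% CI 0.16 to 0.75, edgeR adjusted p = 0.0851).

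Uqcr10 and Cyc1 are both members of complex III. Uqcr10 (ENSMUSG00000059534, chr11:4701973-4704342, minus strand) codes for a small subunit. It had 430, 422, 460, 470 and 729 CPM in ctrl estrus and 329, 372, 453, 324 and 337 CPM in ctrl diestrus. It had 519, 457, 444, 618 and 405 CPM in FL1 estrus and 553, 233, 380, 231 and 357 CPM in FL1 diestrus. In each line a diestrus sample reached into the estrus range, and the difference over both lines was -0.47 (95% CI -0.79 to -0.16, edgeR adjusted p = 0.0925).

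Cyc1 (ENSMUSG00000022551, chr15:76343523-76346260, plus strand) codes for cytochrome c1, which hands electrons to cytochrome c. In ctrl it had 299, 329, 332, 307 and 410 CPM in estrus and 215, 246, 240, 257 and 207 CPM in diestrus. All diestrus samples lay below all estrus samples, and the difference was -0.53 (95% CI -0.88 to -0.19, edgeR adjusted p = 0.143). In FL1 it had 254, 227, 275, 356 and 218 CPM in estrus and 404, 180, 192, 173 and 282 CPM in diestrus. These ranges overlapped, with FL1 diestrus mouse 1 above all other FL1 samples, and the difference was -0.12 (95% CI -0.65 to 0.41). Uqcrb differed by -0.67 between the stages in FL1 (95% CI -1.11 to -0.23, edgeR adjusted p = 0.218) and by -0.11 in ctrl. Of complex I, Ndufb8 in ctrl differed by -0.47 (edgeR adjusted p = 0.366; -0.29 without ctrl estrus mouse 5) and Ndufb11, an accessory subunit, in FL1 by -0.44 (95% CI -0.90 to 0.02, edgeR adjusted p = 0.557; -0.30 without FL1 estrus mouse 4). In the other direction, Ndufa6 and the ATP synthase gene Atp5j in ctrl differed by 0.21 and 0.18, with intervals that held 0.

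Markers of GCs and other cells moved with stage. Over both lines, Fshr, the receptor of follicle-stimulating hormone, was higher in diestrus by 1.34 (edgeR adjusted p = 0.000247), Cyp19a1, the aromatase, by 1.58 (edgeR adjusted p = 0.0218), and Fst and Inhba, which code for follistatin and an activin subunit, by 1.07 and 1.46. These were the 4 of 10 GC markers called, and the summed level of the 10 was 6511 to 10826 CPM in ctrl estrus, 6462 to 11613 CPM in FL1 estrus, 9464 to 16792 CPM in ctrl diestrus and 10038 to 17410 CPM in FL1 diestrus. The theca gene Cyp17a1 was called as higher in diestrus, by 3.16 in ctrl (edgeR adjusted p = 0.00690). The stroma gene Col3a1 was lower over both lines (log2 difference -1.44, edgeR adjusted p = 0.00125). The 6 stroma markers, none at 0 throughout, summed to 562 to 1244 CPM in ctrl estrus, 850 to 1708 CPM in FL1 estrus, 140 to 663 CPM in ctrl diestrus and 135 to 1155 CPM in FL1 diestrus. The macrophage markers summed to 21.1 to 63.0 CPM in ctrl estrus and 7.67 to 20.6 CPM in ctrl diestrus, without overlap. In FL1 their stages overlapped. Lyz2 of this list differed by -1.01 over both lines (edgeR adjusted p = 0.159). Of the endothelial, erythrocyte, smooth muscle and oocyte markers, edgeR and DESeq2 called none in any fit, with 0 to 4 of a list at an unadjusted p under 0.05 in edgeR. Whether these differences bear on the members' stage differences was not tested.

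The interaction of line and stage was called for 0 of 89 members by edgeR and by DESeq2, where edgeR called 0.0% of 14938 genes. At an unadjusted p under 0.05 there was 1 member, Uqcrb, against 4.75% of all genes.

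Other genes of the pathway were read from lists of 51 assembly factors, 27 genes of mitochondrial DNA and RNA upkeep, 16 regulators of mitochondrial biogenesis and 28 genes of electron carriers and ATP exchange. In the 4 comparisons of 2 groups, edgeR called none of them, against 0.221 to 1.36% of all genes. DESeq2 called Hif1a between the lines in estrus, Nrip1, a corepressor, between the stages in ctrl and Ttc19 between the stages in FL1. Over all genes it called 425, 526 and 265, in the same order. At an unadjusted p under 0.05 in edgeR there were 3 to 5 of 50 assembly factors tested in each of the 4 comparisons, 0 or 1 of 25 DNA and RNA genes, 0 or 1 of 12 to 14 regulators, and 0 to 4 of 26 carrier and exchange genes. The share of all genes at such a p was 5.56 to 11.8%. In the 2 adjusted fits, edgeR called 2 genes of the lists, both of which DESeq2 called as well, with 6 more. Over all genes, edgeR called 1.21% for the line and 3.17% for the stage, and DESeq2 called 438 and 873 genes. Hif1a, a transcription factor of the response to low oxygen, had 143 ± 28.4 CPM in ctrl estrus, 230 ± 45.7 CPM in FL1 estrus, 183 ± 26.3 CPM in ctrl diestrus and 250 ± 18.7 CPM in FL1 diestrus (SD, n = 5). All FL1 samples lay above all ctrl samples of the same stage, and Hif1a was higher in FL1 by 0.57 over both stages (edgeR adjusted p = 0.0167). Ttc19, an assembly factor of complex III, averaged 50.6 ± 13.04 and 65.9 ± 18.7 CPM in estrus and diestrus of ctrl and 41.5 ± 8.85 and 81.0 ± 18.4 CPM in FL1. It was higher in diestrus by 0.67 over both lines (edgeR adjusted p = 0.0320). The stages of FL1 were separate, with at most 51.6 CPM in estrus and at least 62.6 CPM in diestrus.

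Promoter sequences of the nuclear genes, which the choice by name did not use, were searched for 3 motifs, and most windows held none of a given motif. In windows of 250 bases before to 50 bases after the start (RefSeq, GRCm38.p6), found for 68 of 85 nuclear symbols, 73 windows were searched on both strands. The letters CGCATGCG, the core of sites bound by NRF1, a factor of many respiratory genes, were in 9 windows (12.3%) against 1.87% of all 32851 windows. The letters AAGATGGC, bound by YY1, were in 10 (13.7%) against 2.75%, among them those of Ndufs4 and Ndufs6. The letters CCGGAAGT, bound by ETS factors, were in 5 (6.85%) against 3.89%. Any 2 of these motifs can overlap by at most 1 base. A match is a description of the sequence and not a measured site. As examples, 40 bases around the NRF1 letters (in capitals) are shown for the 5 genes where all 40 lie within the 250 bases before the start, at chr15:102671065-102671104 (minus strand), chr16:84835100-84835139 (minus), chr5:108434425-108434464 (minus), chr5:115349096-115349135 (minus) and chr17:56717687-56717726 (plus).
Atp5g2: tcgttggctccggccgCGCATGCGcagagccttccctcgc
Atp5j: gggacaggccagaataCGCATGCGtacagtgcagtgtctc
Atp5k: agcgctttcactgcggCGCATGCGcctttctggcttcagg
Cox6a1: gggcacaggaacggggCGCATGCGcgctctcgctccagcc
Ndufa11: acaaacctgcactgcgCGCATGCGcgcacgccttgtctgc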

How the data were processed

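Mural GCs of 20 mice (5 a group) were profiled by 3′ sequencing of total RNA. The authors mapped the reads with STAR 2.6.0a to GRCm38, and deposited read counts per gene as STAR wrote them; the counts are raw and unnormalized. Reads with several places in the genome were not counted, and the strand setting is not given in the sources used here. Of 55487 gene IDs, 55141 matched the GENCODE M21 annotation.

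CPM were computed with TMM scaling. Tests used edgeR 4.0.16 (R 4.3.3), quasi-likelihood, on genes kept by filterByExpr (count minimum 10, total minimum 15). Benjamini-Hochberg adjustment was over all genes tested, with a threshold of 0.05. A prior count of 2 was used for the log2 levels behind the spreads within groups, not for the fitted differences. Comparisons were FL1 against ctrl within each stage, as in the study, diestrus against estrus within each line, and 3 fits over all 20 samples (line, stage and their interaction). DESeq2 1.42.0, limma 3.58.1 (voom), other filters and scalings, a replicate block and samples left out in turn were alternatives. The model fits were tested on simulated data. Nuclear copies were searched with BLAST 2.17.0 (the last 500 bases of each transcript, at least 90% identity over 100 or more bases). No 2 libraries of a group agreed within sampling noise.

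The members and lists were chosen with earlier results of these data known. Named were the 13 mitochondrial genes, nuclear members called, the 3 with the lowest p in each direction of each comparison of 2 groups, the 2 highest of each complex, isoform families, and called genes of the other lists; others named were chosen after their values were seen. Counting error limits genes with few reads, and a p-value covers the spread between these mice.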

Additional observations from a re-analysis of the deposited data

Results flagged for a closer look

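Within groups of 5 samples, 7 values lay apart from the rest of their group by Dixon's test at 95%, of 72 groups tested, where chance flags about 1 in 20. In ctrl estrus, mouse 5 was high in the summed level of nuclear members (33281 CPM, next highest 25789), Cox5a (525 CPM, next 445), Ndufs4 (379 CPM, next 247) and Uqcr10 (729 CPM, next 470). In the same group, mouse 1 was high in Atp5g1 (60.5 CPM, next 10.7) and mouse 3 low in mt-Nd1 (5068 CPM, next lowest 11768). In ctrl diestrus, mouse 4 was high in mt-Co1 (2715 CPM, next 1572).

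Outside the members, the chromosome 1 copy of mt-Nd3, Gm28438, held 64605 reads over all samples, and the mitochondrial rRNA genes mt-Rnr1 and mt-Rnr2 held 3103593 and 7882625 reads.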

How the results depend on the processing

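The count of members called was 0 in each fit by edgeR and stayed at 0 or moved as follows. DESeq2 called 1 member in estrus (Uqcrb), 1 between the stages in ctrl (Cyc1), 3 for the line adjusted for stage and 3 for the stage adjusted for line. With no filter on low counts, 1 was called in estrus (Uqcrb) and 1 for the line adjusted for stage (Atp5g1). With all 20 samples in 1 fit, 1 was called in estrus (Uqcrb), and limma-voom with sample weights called 2 for the stage adjusted for line. With each sample left out in turn, the count stayed at 0 in the other fits, ranged from 0 to 1 for the line adjusted for stage (Uqcrb without ctrl diestrus mouse 4), and from 0 to 2 for the stage adjusted for line (Ndufs4 without ctrl estrus mouse 5 or without FL1 estrus mouse 4, and Cyc1 and Uqcr10 without FL1 diestrus mouse 1). The difference of Uqcrb in estrus was then 0.72 to 0.87. Atp5g1 turned from -2.09 to 0.029 in estrus when pooled with its copies. The causes were not tested. Summed levels moved by less than 1 SD in all 28 alternatives and 120 leave-one-out values.

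The replicate numbers did not pair the samples. Deviations of same-numbered samples correlated between -0.12 and 0.12, and 0, 2, 2 and 2 of 10 samples correlated best with their own number in the 4 comparisons of 2 groups. With a replicate block, 0 members were called in each fit, 422 genes for the stage and 136 for the line over all samples, and 58 genes in estrus, 13 in diestrus, 158 between the stages in ctrl and 28 in FL1, against 100, 32, 175 and 29 without it.

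Calls over all genes varied more. In the order estrus, diestrus, stages in ctrl and stages in FL1, DESeq2 called 425, 118, 526 and 265 genes, and no filter gave 373, 348 and 299 in estrus and for the 2 lines, and 3.34 times the edgeR count in diestrus. For the line, the stage and the interaction over all samples, edgeR called 181, 473 and 0 genes, DESeq2 438, 873 and 1, no filter 319, 617 and 6, and limma-voom 286, 787 and 0. For the stages in FL1, limma-voom called 130 and 1 fit of all samples 65. Members with few reads, such as mt-Nd3 and Cox4i2, have wide intervals at this depth.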
